A study of Mus musculus with 8 samples.

Results

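The genes described here are 8 genes of cholesterol synthesis and its control, Hmgcs1, Idi1, Fdps, Fdft1, Sqle, Lss, Cyp51 and Insig1, chosen by symbol. All 8 are among the 13420 genes of the read count table, and all 8 passed the filter on low counts that 5264 genes passed. They were measured in sorted mouse small intestinal organoid cells by CEL-Seq, a method that sequences transcripts from their 3' ends. WT cells came from organoids of C57BL/6 mice with the mTmG reporter, in which the cell membrane carries tdTomato, and, per the methods of the study, Rosa26-CreERT2. Cancer cells came from an organoid line of C57BL/6 (F6) background with Villin-CreERT2, Apc fl/fl and Tr53 fl/R172H among its alleles, and carried Dendra2. The Villin promoter restricts this Cre to the intestinal epithelium. All cells grew in the same medium with EGF, Noggin and R-spondin1. Pure cultures were compared with mixed cultures of 2 parts WT to 1 part cancer cells, and live cells were sorted by color on day 3 after mixing. Pure WT (A01, A05), mixed WT (A02, A06), pure cancer (A03, A07) and mixed cancer cells (A04, A08) have 2 libraries each, named by their wells. No source used here says whether these libraries come from separate cultures, so their spread may be technical.

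Cholesterol is built from acetyl-CoA through mevalonate, farnesyl diphosphate and squalene to lanosterol and the later sterols. When membranes of the endoplasmic reticulum hold little sterol, SCAP escorts the SREBP2 transcription factor to the Golgi, where it is cut and released to switch on the enzymes and cholesterol uptake. INSIG1 retains SCAP when sterols are plentiful, and intestinal epithelium both absorbs cholesterol and makes it. The genes chosen hold 7 enzymes and this sensor, and none of them takes up cholesterol, so uptake is described through a list of its own.

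RefSeq start-site windows, 250 bases before to 50 bases after the start, were read for 5 of the 8 genes, all but Fdps, Fdft1 and Sqle. The windows of Hmgcs1 and Insig1 are shown, the former for its match to the element that SREBP binds and the latter because Insig1 had the largest difference between cell types over both cultures. Capitals mark every match to TCACNCCA, CACCCCAC, CCAAT or GGGCGG on either strand, the last 2 of which are the boxes of NF-Y and Sp1. The window of Hmgcs1 lies at chr13:119690101-119690400 on the plus strand and that of Insig1 at chr5:28071162-28071461 on the plus strand of GRCm38.p6.
Hmgcs1: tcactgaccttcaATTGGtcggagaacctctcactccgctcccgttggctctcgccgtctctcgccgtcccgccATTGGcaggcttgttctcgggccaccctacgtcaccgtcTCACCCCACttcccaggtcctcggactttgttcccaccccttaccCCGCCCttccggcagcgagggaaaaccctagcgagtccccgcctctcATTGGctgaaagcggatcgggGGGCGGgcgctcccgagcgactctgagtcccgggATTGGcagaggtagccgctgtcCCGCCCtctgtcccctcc
Insig1: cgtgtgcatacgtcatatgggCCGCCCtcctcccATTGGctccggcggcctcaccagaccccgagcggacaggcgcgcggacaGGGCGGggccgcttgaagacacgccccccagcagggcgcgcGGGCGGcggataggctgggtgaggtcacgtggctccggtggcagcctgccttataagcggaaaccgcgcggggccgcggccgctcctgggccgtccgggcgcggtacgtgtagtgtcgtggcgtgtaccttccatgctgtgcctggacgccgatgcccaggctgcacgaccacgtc
Both sterol regulatory element letters, TCACNCCA and CACCCCAC, matched in Hmgcs1 alone, in a single overlapping stretch that begins 137 bases before the start. TCACNCCA occurs in 4.36% of the 32851 windows of the RefSeq table and CACCCCAC in 2.87%. CCAAT and GGGCGG were found in 5 of the 5 windows, against 37.4% and 35.7% of all windows. Insig1 held 1 CCAAT and 3 GGGCGG, and Hmgcs1 held 4 and 3. No match says only that these letters are not in this window.

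**Figure D1:**
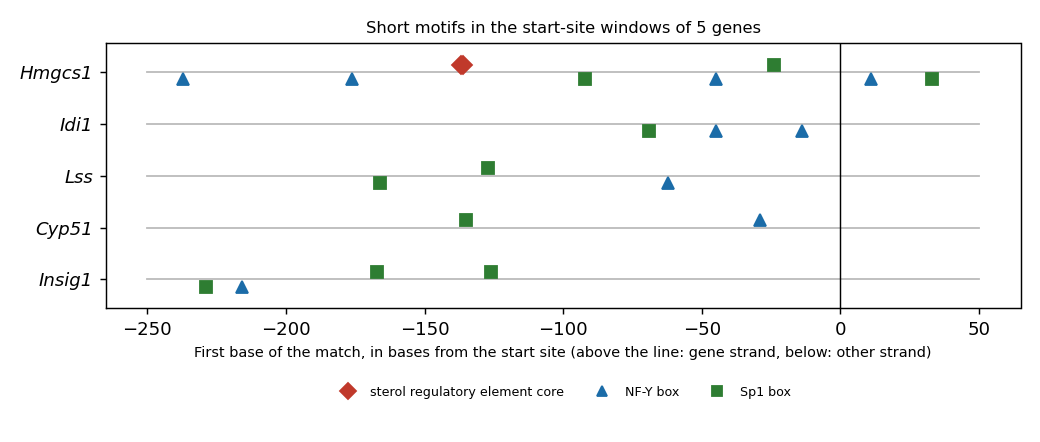
Positions of the short motifs in the start-site windows of 5 genes, with the distance of each match from the start site in bases on the x axis and the genes on the y axis. Symbols above a line lie on the strand of the gene and those below on the other strand, and the sterol regulatory element symbol appears in Hmgcs1 alone.

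Depth limited the counting precision of these values. The libraries hold 73109 (A02) to 4733121 reads (A04), and the 8 genes together received 106 reads in A02 and 5982 in A04. The level of a gene is given as CPM, its reads per 1000000 reads of the library after TMM scaling. Because only 3' ends are read, these levels are not divided by transcript length, and genes are compared between libraries and not with each other. As checks of the labels, summed markers of enterocytes (8 genes, such as Alpi and Fabp1) reached 1541 to 1848 CPM in WT and 0 to 15.7 CPM in cancer libraries, and those of goblet cells 2320 to 3484 and 6.46 to 15.6 CPM. Fetal-like markers reached 303 to 370 CPM in pure WT, 2189 to 4746 CPM in mixed WT and 5312 to 10650 CPM in cancer libraries. Over both cultures, 5 of these 6 markers were higher and 1 lower in cancer than in WT cells at an edgeR adjusted p under 0.05, which 14.2% of all tested genes reached. The lower marker had a log2 change of −6.75. Of 6 fibroblast markers 2 were in the table, at up to 7.31 CPM, and of 6 immune markers 1, at up to 0.562 CPM. The 3' reads of Apc and Tr53 do not show the alleles, so the genotypes were not checked. In bulk cells, fewer cells of a type and less RNA per cell cannot be told apart.

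Of the 3 early enzymes, up to farnesyl diphosphate, none was called between any groups. Hmgcs1 (GRCm38, chromosome 13, 119690379 to 119708260), which makes HMG-CoA, was at 66.8 and 54.0 CPM in pure WT, 144 and 56.6 CPM in mixed WT, 173 and 74.8 CPM in pure cancer and 102 and 46.7 CPM in mixed cancer libraries. Its 2 highest values came from the shallow libraries A02 and A03, on 11 and 33 reads, and the groups overlapped except for pure cancer above pure WT. Idi1 (chromosome 13, 8885501 to 8892451), the isomerase that forms dimethylallyl diphosphate, was at 63.1 and 36.0 CPM in pure WT, 65.5 and 65.7 CPM in mixed WT, 110 and 32.9 CPM in pure cancer and 37.4 and 41.5 CPM in mixed cancer libraries. Both mixed WT values stood above both pure WT values, the only such case among the 8 genes, though by less than the 2 pure WT libraries differ from each other. Fdps (chromosome 3, 89093588 to 89101959), which makes farnesyl diphosphate, was at 610 and 324 CPM in pure WT, 642 and 587 CPM in mixed WT, 357 and 338 CPM in pure cancer and 489 and 508 CPM in mixed cancer libraries. Mixed cancer libraries were above pure ones for Fdps, while A01 reached the mixed WT range. Of the windows of 50 bases at the 3' end of Fdps, 74.1% also occur in 7 annotated copies such as Gm3571, none of which is in the count table, so its reads are uncertain.

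Of the 4 enzymes from squalene to the first sterols, 3 were highest in the mixed WT library A06, while the other mixed WT library did not share this. Fdft1 (chromosome 14, 63145150 to 63179578), squalene synthase, was at 322 and 195 CPM in pure WT, 249 and 526 CPM in mixed WT, 168 and 204 CPM in pure cancer and 228 and 239 CPM in mixed cancer libraries. Sqle (chromosome 15, 59315077 to 59331192), squalene epoxidase, a rate-limiting step, was at 99.8 and 91.6 CPM in pure WT, 78.6 and 229 CPM in mixed WT, 105 and 86.8 CPM in pure cancer and 83.0 and 20.7 CPM in mixed cancer libraries. The lowest Sqle value, in A08, rests on 4 reads with a 95% counting interval of 5.65 to 53.1 CPM. Lss (chromosome 10, 76531588 to 76557138), which closes the rings to lanosterol, was at 44.8 and 27.0 CPM in pure WT, 52.4 and 34.0 CPM in mixed WT, 21.0 and 12.0 CPM in pure cancer and 33.9 and 10.4 CPM in mixed cancer libraries. The Lss values rest on 2 to 4 reads in A02, A03, A07 and A08. Cyp51 (chromosome 5, 4081145 to 4104746), which removes the 14-alpha methyl group of lanosterol, was at 178 and 116 CPM in pure WT, 105 and 299 CPM in mixed WT, 199 and 192 CPM in pure cancer and 167 and 171 CPM in mixed cancer libraries. The 4 cancer libraries held Cyp51 within 167 to 199 CPM, and the 2 mixed WT libraries gave its lowest and its highest value.

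Insig1 (chromosome 5, 28071363 to 28078662) was the gene of the 8 that differed most between cell types over both cultures. It was at 86.9 and 56.2 CPM in pure WT, 52.4 and 156 CPM in mixed WT, 63.0 and 41.9 CPM in pure cancer and 29.0 and 25.9 CPM in mixed cancer libraries. Both mixed cancer values were below every other library, and the pure cancer and WT values overlapped. Its mean fell in the order mixed WT, 104 ± 73.5 CPM, pure WT, 71.6 ± 21.7 CPM, pure cancer, 52.4 ± 14.9 CPM, and mixed cancer, 27.4 ± 2.14 CPM (SD, n = 2 each). The first 3 groups lie within their spreads of their neighbours in that order. A02 holds 4 reads of Insig1, with a 95% counting interval of 14.3 to 134 CPM, and A08 holds 5, with one of 8.42 to 60.5 CPM. These intervals cover counting error of reads only. Reads include amplification copies, so intervals for molecules would be wider.

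**Figure D2:**
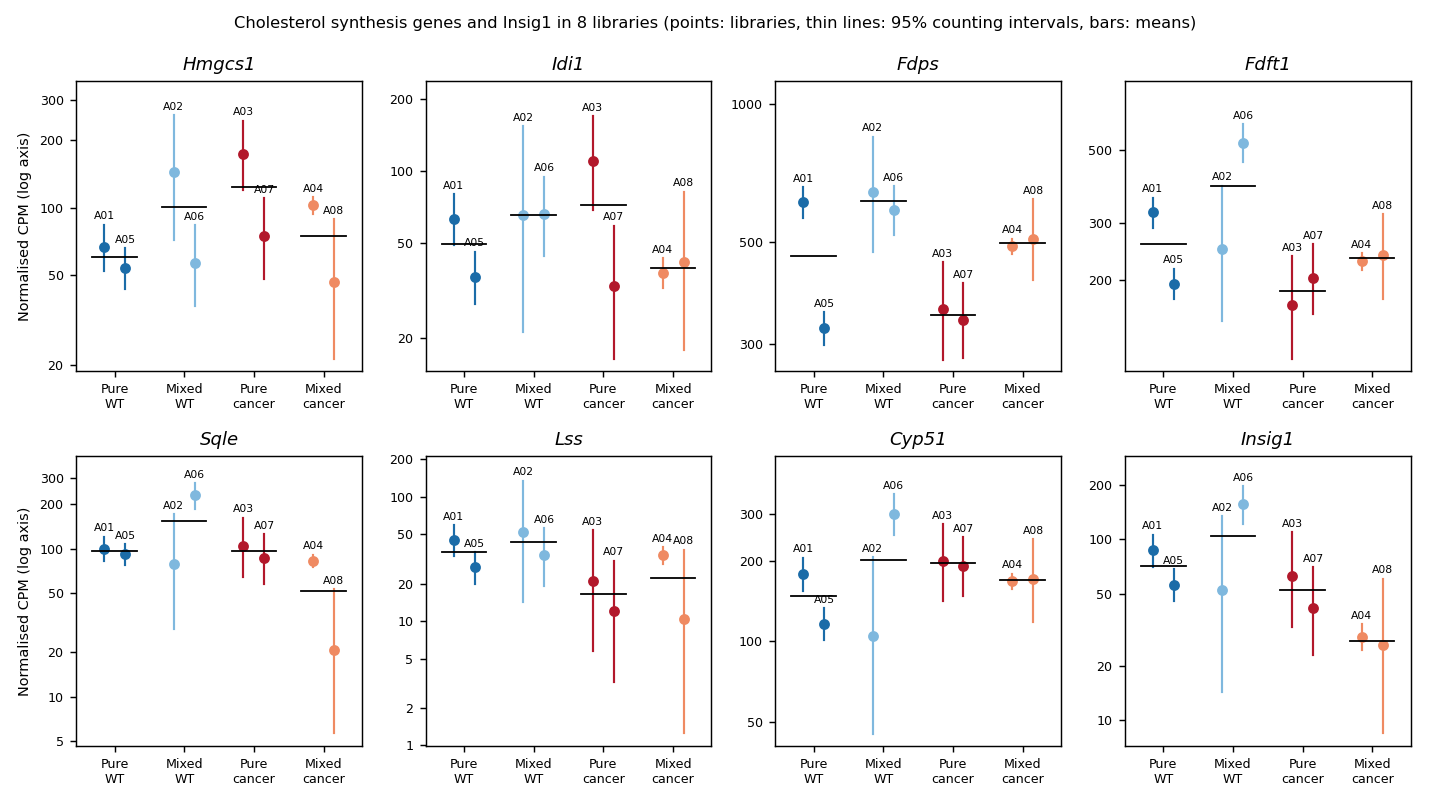
Normalised CPM on a log axis for the 8 genes in the 4 groups. Each point is a library, thin vertical lines are 95% counting intervals of reads, and black bars are means of 2 libraries. A06 is the highest library for Fdft1, Sqle, Cyp51 and Insig1, and the mixed cancer libraries are the 2 lowest for Insig1.

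A06 gave the highest value of 4 of the 8 genes and A08 the lowest value of 4. The summed level of the 8 genes was 1473 and 900 CPM in pure WT libraries A01 and A05, 1389 CPM in A02 and 1953 CPM in A06. In cancer libraries it ran from 982 to 1197 CPM. A06 therefore stood above all other libraries, while A02 lay inside the pure WT range.

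The first question was whether WT cells change these genes when they grow beside cancer cells. None of the 8 genes was called, which needs an adjusted p under 0.05 in the quasi-likelihood test of edgeR, where 0.741% of the 5264 tested genes were called in mixed against pure WT cells. None of the 8 reached an unadjusted p under 0.05, which 9.67% of all tested genes did. All 8 log2 changes were above 0, from 0.17 for Lss to 0.80 for Sqle, with a median of 0.56 beside one of −0.10 over all tested genes, of which 44.8% were above 0. Fdft1 had a log2 change of 0.64 (± 0.477 SE, edgeR adjusted p = 0.744) and Insig1 one of 0.69 (± 0.634 SE, edgeR adjusted p = 0.795). The 95% interval of Fdft1, from −0.35 to 1.62, holds both no change and a 3-fold rise, and the intervals of the other 7 genes include 0 too. The shared direction depended on single libraries, with 4 of 8 genes above 0 without A06, 6 without A02 and 7 without A05, and 7 were above 0 from barcode counts. In 1 of the 8 genes, Idi1, the mixed and pure WT libraries did not overlap, against 43.8% of all tested genes. Summed stem cell markers did not overlap between the same groups, at 418 to 579 CPM in pure WT and 78.6 to 195 CPM in mixed WT libraries, nor did cycling markers, at 630 to 716 and 177 to 577 CPM, and their part in these values was not tested.

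In cancer cells, mixing gave 3 positive and 5 negative log2 changes, with a median of −0.41 beside 0.03 over all tested genes. They ran from −0.88 for Insig1 (± 0.707 SE) to 0.70 for Lss (± 0.906 SE), and every adjusted p was 1 (edgeR). The same test called 0% of all tested genes, and 1.31% had an unadjusted p under 0.05, none of them among the 8. DESeq2 called none of the 8 genes in this or any other comparison. Mixed and pure cancer libraries did not overlap for 5 of the 8 genes, with Fdps and Fdft1 higher and Sqle, Cyp51 and Insig1 lower in mixed cells, against 24.6% of all tested genes. Summed stem cell markers did not overlap between these groups either, at 89.2 to 135 CPM in pure and 233 to 420 CPM in mixed cancer libraries, and their part in these values was not tested. The signed log2 change on mixing was higher in WT than in cancer cells for 6 of the 8 genes, and none passed the test of this difference, which 0.076% of all tested genes passed, or had an unadjusted p under 0.05 in it. The largest differences were 1.57 for Insig1 (± 0.95 SE, edgeR adjusted p = 0.783) and 1.49 for Sqle (± 0.879 SE, edgeR adjusted p = 0.773) on the log2 scale.

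**Figure D3:**
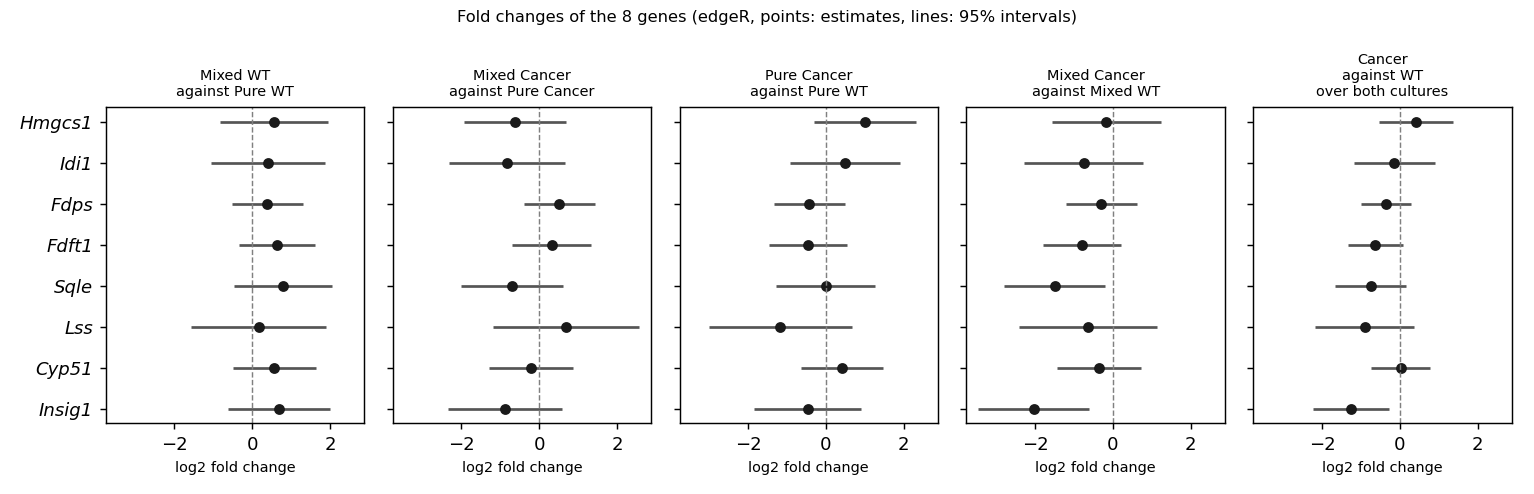
Log2 fold changes of the 8 genes in 5 comparisons, with points for the edgeR estimates and lines for their 95% intervals. In mixed cancer against mixed WT cells the intervals of Sqle and Insig1 lie below 0, and in the comparison over both cultures that of Insig1 does, while all other intervals include 0.

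The second question was how cancer cells differ from WT cells. Between pure cultures no gene of the 8 was called, where 9.95% of all tested genes were. Hmgcs1 had the highest log2 change at 1.01 (± 0.632 SE, edgeR adjusted p = 0.400) and Lss the lowest at −1.17 (± 0.886 SE, edgeR adjusted p = 0.507). The median over the 8 was −0.22, beside −0.05 over all tested genes. Hmgcs1 and Cyp51 were higher and Lss was lower in both pure cancer libraries than in both pure WT libraries, 3 of 8 genes against 52.6% of all tested genes. None of the 8 had an unadjusted p under 0.05 in this comparison.

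Between mixed cultures all 8 log2 changes were below 0, with a median of −0.69 beside 0.12 over all tested genes. No gene of the 8 was called, where 6.42% of all tested genes were. Insig1 had a log2 change of −2.04 ± 0.689 (SE), a 4.10-fold lower level in mixed cancer than in mixed WT cells (edgeR adjusted p = 0.0873). Sqle had one of −1.50 ± 0.628 (SE), a 2.83-fold lower level (edgeR adjusted p = 0.206). Both had an unadjusted p under 0.05. The other 6 genes ran from −0.79 for Fdft1 to −0.17 for Hmgcs1, none with an unadjusted p under 0.05. Mixed cancer and mixed WT libraries did not overlap for 5 of the 8 genes, Idi1, Fdps, Fdft1, Lss and Insig1, all of them lower in cancer cells, against 44.9% of all tested genes in either direction. Without A06 the log2 changes of Insig1 and Sqle were −0.85 and −0.35. That of Sqle was −3.02 without A04, −0.97 without A08 and −0.82 from barcode counts, and it was 0.13 from barcode counts without A06, so neither its size nor its direction held under every alternative. From reads, 1 of the 8 genes was above 0 when A02, A06 or A08 was left out in turn.

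The call on Insig1 depended on how molecules were counted and on which libraries were kept. The barcode counts, the number of different molecule tags per gene, were 62 and 52 in pure WT, 4 and 49 in mixed WT, 10 and 11 in pure cancer and 74 and 4 in mixed cancer libraries. From these counts Insig1 was lower in mixed cancer than in mixed WT cells, with a log2 change of −1.88 (edgeR adjusted p = 0.00267), where 8.29% of the 4268 genes tested on barcodes were called. Over both cultures its log2 change from barcodes was −1.13 (edgeR adjusted p = 0.00861), where 16% of genes were called. From reads it was −1.25 ± 0.476 (SE), or 2.38-fold lower in cancer cells (edgeR adjusted p = 0.0864), where 14.2% of all tested genes were called. With all 8 libraries, Insig1 was the only one of the 8 genes called from barcodes in these comparisons. These calls were lost without the mixed WT library A06, where the log2 changes of Insig1 from barcodes were −1.02 (edgeR adjusted p = 0.637) and −0.69 (edgeR adjusted p = 0.505). Without A04 they were −2.20 (edgeR adjusted p = 0.128) and −1.27 (edgeR adjusted p = 0.0583). Leaving libraries out of the barcode counts was chosen after seeing the data. The largest barcode count among the 8 genes was 247, for Fdps in A04, close to the number of tags that exist, so barcodes understate Fdps there.

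**Figure D4:**
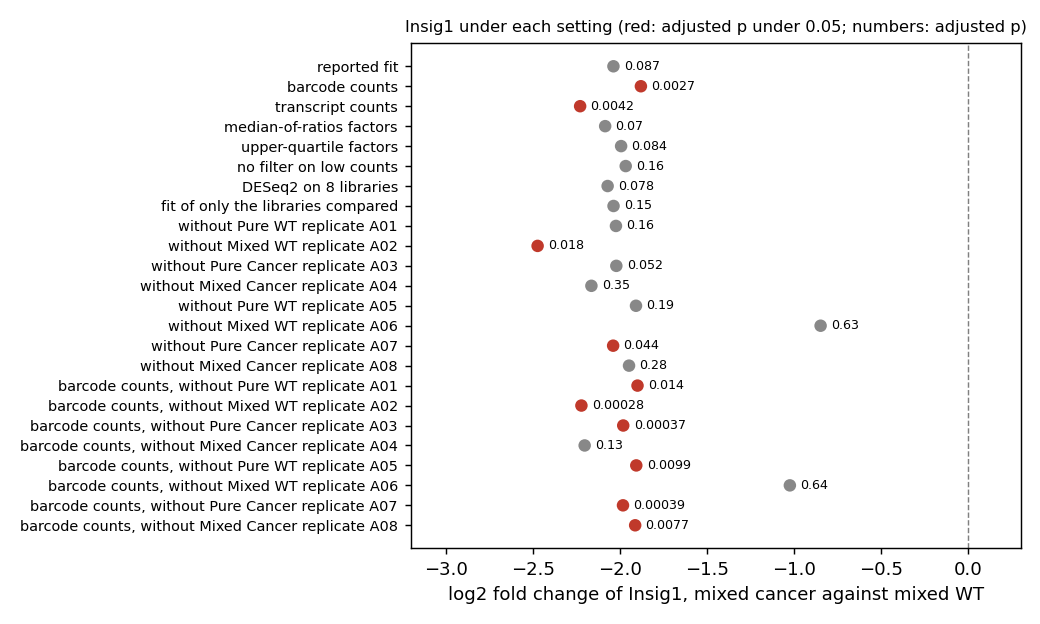
Log2 fold change of Insig1 between mixed cancer and mixed WT cells under each setting, with the adjusted p beside each point and red points for an adjusted p under 0.05. All points lie below 0, with the fits without A06 nearest to it. Red points are barcode counts, transcript counts, reads without A02 or A07, and barcode counts without any 1 library other than A04 or A06.

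Over both cultures the other 7 genes ran from −0.90 for Lss to 0.42 for Hmgcs1 on the log2 scale, and Cyp51 was at 0.02 (± 0.366 SE) with a 95% interval of −0.73 to 0.78. None of the 8 genes kept all 4 cancer libraries apart from all 4 WT libraries, which 16.4% of all tested genes did. The early enzymes thus had values on both sides of 0, and Fdft1, Sqle and Lss values below it, none of them past the test. Cancer libraries hold almost no enterocyte or goblet markers, as given with the label checks, and the part of this in the Insig1 value was not tested.

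Other enzymes of the pathway were read from a list of 16, of which 15 were tested. None was called on mixing in either cell type. Between pure cancer and pure WT cells none of the 15 was called, and their median was −1.17 beside −0.05 over all tested genes. There 6 were lower and 1 higher at an unadjusted edgeR p under 0.05, which 20.5% of all tested genes reached. Between mixed cultures none was called, the median was −0.44 beside 0.12, and 2 were lower at that p, which 16.4% of all tested genes reached. In cancer against WT cells over both cultures 2 of the 15 were called, both lower, and the median was −0.30. In that comparison 14.2% of all tested genes were called in either direction, a share close to that of the list. Tm7sf2, a sterol C14 reductase that acts after Cyp51, was at 234 and 193 CPM in pure WT, 78.6 and 179 CPM in mixed WT, 94.5 and 32.9 CPM in pure cancer and 72.2 and 10.4 CPM in mixed cancer libraries, and was lower in cancer cells by a log2 change of −1.65 (± 0.472 SE, edgeR adjusted p = 0.0181). Dhcr7, which makes cholesterol from 7-dehydrocholesterol, was at 74.1 and 48.9 CPM in pure WT, 105 and 56.6 CPM in mixed WT, 31.5 and 18.0 CPM in pure cancer and 20.2 and 5.19 CPM in mixed cancer libraries. Every cancer library was below every WT library for Dhcr7, where 16.4% of all tested genes kept these libraries apart in either direction. Its values rest on 1 read in A08, 6 in A03, 6 in A07 and 8 in A02. The log2 change of Dhcr7 in cancer against WT cells was −1.78 (± 0.548 SE, edgeR adjusted p = 0.0284). Tm7sf2 was not called without A06 (edgeR adjusted p = 0.174), and Dhcr7 not without A01, A05, A07 or A08 (edgeR adjusted p = 0.0729 to 0.130).

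**Figure D5:**
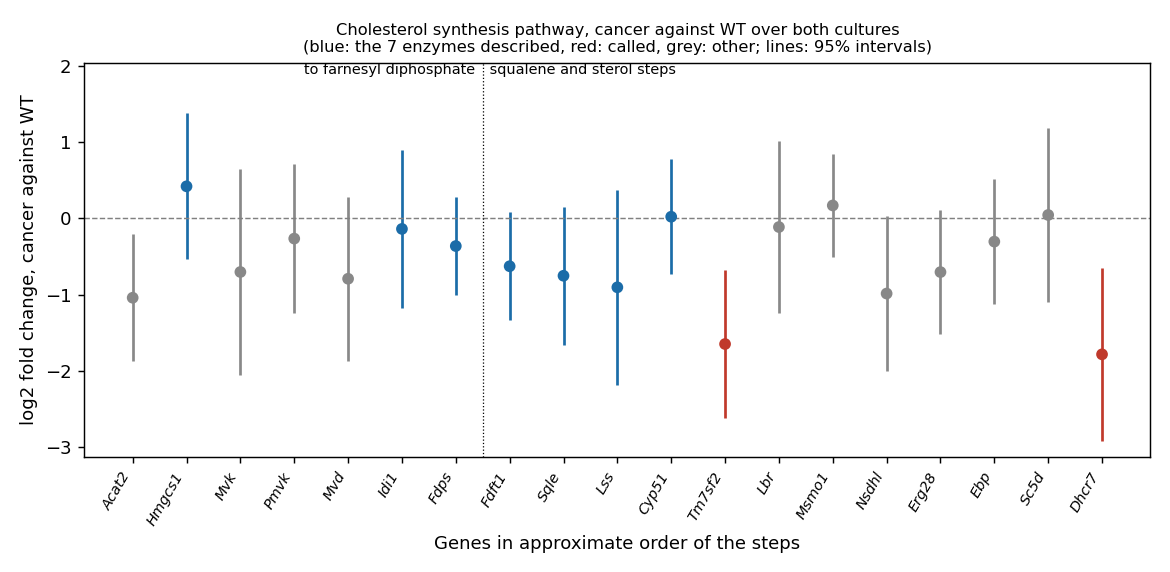
Log2 fold changes of enzymes of cholesterol synthesis in cancer against WT cells over both cultures, with genes in the approximate order of their steps on the x axis and lines for 95% intervals. Tm7sf2 and Dhcr7, drawn in red, are the enzymes called, and the 7 enzymes described here, in blue, all have intervals that include 0.

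On mixing in WT cells, Sc5d, a late desaturase, had the highest log2 change of this list at 1.45 (± 0.772 SE, edgeR adjusted p = 0.569). Ggps1, which makes geranylgeranyl diphosphate outside the sterol branch, had the lowest on mixing and the highest in cancer cells, on 0 to 34 reads per library and with neither called. In the list, the late-pathway genes Erg28 and Lbr were lower in mixed than in pure WT cells and higher in mixed than in pure cancer cells without overlap of libraries, a pair of opposite directions that 7.37% of all tested genes had. They were chosen after their values were seen. None of the 8 genes had this pattern.

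Sensors and regulators did not separate the groups either. Of 11 listed, 8 were tested and none was called in any comparison. Srebf2, which encodes SREBP2, was at 81.5 and 24.2 CPM in pure WT, 78.6 and 97.4 CPM in mixed WT, 57.7 and 120 CPM in pure cancer and 102 and 72.6 CPM in mixed cancer libraries. Its log2 change in cancer against WT cells over both cultures was 0.39 (± 0.468 SE, edgeR adjusted p = 0.679). Insig2, the paralog of Insig1, had the highest log2 change on mixing in WT cells, 1.97 (± 0.797 SE, edgeR adjusted p = 0.376), and was at 15.6 and 13.5 CPM in pure WT and 65.5 and 52.1 CPM in mixed WT libraries, on 5 reads in A02. Its value over both cultures in cancer against WT cells was 0.35 (± 0.558 SE, edgeR adjusted p = 0.763), of the opposite sign to that of Insig1. That value averages opposite directions in the pure and mixed cultures. Insig2 was at 57.7 and 26.9 CPM in pure cancer libraries, above both pure WT values. It was at 28.0 and 41.5 CPM in mixed cancer libraries, below both mixed WT values, the same direction as Insig1 there. Stard4, a sterol carrier, was lowest on mixing in WT cells at −0.90, and Nr1h2, a liver X receptor, was highest in cancer against WT cells over both cultures at 0.51, neither of them called.

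Of 9 uptake and trafficking genes, 4 were tested. Npc2, which carries cholesterol out of lysosomes, was highest on mixing in WT cells at 0.13, and Scarb1, the HDL receptor, lowest in cancer cells at −0.78, with neither called.

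Of 7 efflux and storage genes, 2 were tested. Abcg5, which pairs with Abcg8 in the sterol efflux pump, had 14 and 48 reads in pure WT, 2 and 5 reads in mixed WT and 0 reads in all 4 cancer libraries. Set against 3 reads over the pooled cancer libraries, its level was at least 39.5-fold lower in cancer than in WT cells over both cultures (edgeR adjusted p = 0.00255). This bound rests on the depth of A04 and is 4.87-fold without it. Between mixed cultures the mixed WT reads come from 1 barcode in each library, and without A04 the level of Abcg5 there, 13.5 CPM, is under the floor of 15.6 CPM, so no fold is given. Soat1, which esterifies cholesterol, had a log2 change of −0.72 on mixing in WT cells and was not called. Abcg5 is an enterocyte gene, and all 6 enterocyte markers tested were also called lower in cancer cells, whose part in this value was not tested.

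Of 12 fatty acid genes that SREBP also controls, 8 were tested, and over both cultures 1 was called in each direction in cancer cells, where 14.2% of all tested genes were called. Acss2, the cytosolic enzyme that makes acetyl-CoA from acetate, was at 177 to 341 CPM in the 4 WT and 31.5 to 68.8 CPM in the 4 cancer libraries. Its log2 change was −2.54 (± 0.392 SE, edgeR adjusted p = 4.2e-05). Me1, the malic enzyme that supplies NADPH for lipid synthesis, was at 13.5 to 92.9 CPM in WT and 130 to 229 CPM in cancer libraries, with a log2 change of 2.47 (± 0.427 SE, edgeR adjusted p = 0.000165). Acss2 was called lower between pure cultures too, at −2.10 (edgeR adjusted p = 0.0142), and between mixed cultures, at −2.98 (edgeR adjusted p = 0.00098), and Me1 was called higher between pure cultures, at 3.56 (edgeR adjusted p = 0.00032), but not between mixed cultures, at 1.39 ± 0.6 (SE, edgeR adjusted p = 0.223). On mixing in WT cells Me1 also had the highest value of this list, 2.00 (± 0.63 SE, edgeR adjusted p = 0.186), and Fasn, fatty acid synthase, the lowest, −1.33 (± 0.773 SE, edgeR adjusted p = 0.632), with 0 reads in A02.

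Among themselves the 8 genes were loosely tied. Over the 8 libraries, Pearson correlations of log2 CPM between pairs ran from −0.417 for Hmgcs1 with Fdft1 to 0.825 for Sqle with Insig1, with a median of 0.362 over 28 pairs. Pairs of all tested genes with a mean of at least 50 reads had a median of 0.0551. The points share libraries and their depth, and no test was made. The profile of the 8 genes was taken as the mean of their log2 CPM after each gene was standardised over the 8 libraries. The 5 genes most like this profile, out of 2739, were Pex19 (r = 0.960), Prr15l (r = 0.924), Cdkn1a (r = 0.916), Tomm40l (r = 0.906) and Tkt (r = 0.898). Pex19 was at 79.3 CPM in A06, its highest library, and 31.1 CPM in A08, its lowest. The profile was also highest in A06 and lowest in A08, while the summed CPM of the 8 genes was lowest in A05.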

How the data were processed

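Per the labels and the methods of the study, cells were sorted 3 days after mixing and RNA was amplified by CEL-Seq. The authors mapped the transcript reads with BWA against RefSeq transcripts of mm10, kept only those with a single best position, and counted them per gene with featureCounts. The authors deposited read counts, barcode counts and transcript counts per gene without normalization. Read counts include amplification copies, and barcode counts saturate once most of the available tags are used. Transcript values are expected counts that the authors estimated from barcodes, deposited as decimals and rounded here. A table of the authors' own comparison (fold changes and p-values) was not used.

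Read counts of 13420 genes, without 2 entries that are no mouse genes, were analysed in R 4.3.3 by edgeR 4.0.16. Low genes were removed with filterByExpr at a minimum count of 10, and the rest were scaled with TMM, fitted in 1 quasi-likelihood model of 8 libraries in 4 groups, and called at a Benjamini-Hochberg adjusted p under 0.05 over 5264 genes. The script was tested on simulated data. Standard errors (SE) were taken as the log2 change divided by the root of its F statistic, without sign. Counting intervals are exact Poisson intervals of reads, and the floor for 0 reads is 3 reads. Libraries hold 2.27 (A02) to 6.84 (A04) reads per barcode, so these intervals are narrower than intervals for molecules would be. Libraries differed from their replicate by more than the Poisson noise of reads (chi-square per degree of freedom 4.90 to 13.8). Amplification copies also raise this value, so it does not measure the spread between replicates alone. Genes named are the 8, Srebf2, list genes called in any comparison, the list genes with the largest change in each direction on mixing in WT cells and in cancer against WT cells, and the 5 most alike genes, of which some are not reported here. The genes and lists were chosen with earlier results of these data known. Positions come from GENCODE vM21 and start-site windows from RefSeq. Alternatives were barcode or transcript counts, other scaling factors, other filters, DESeq2 1.42.0, fits of only the libraries compared and each library left out, the last also from barcode counts.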

Additional observations from a re-analysis of the deposited data

Results flagged for a closer look

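In the late genes Erg28 and Lbr of the synthesis list the mixed WT libraries were both below the pure WT libraries while the mixed cancer libraries were both above the pure cancer libraries. Erg28, which tethers enzymes that remove the methyl groups at carbon 4, had a change on mixing in WT minus that in cancer cells of −1.59 on the log2 scale (edgeR adjusted p = 0.703). Lbr, a sterol reductase of the nuclear membrane, had a difference of −2.59 (edgeR adjusted p = 0.600) and rests on 1 read in A02. Neither passed the test of the difference, and 7.37% of all tested genes had this pattern. Groups of 2 libraries allow no test for a library that stands apart.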

How the results depend on the processing

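The count of the 8 genes called was 0 on mixing in WT cells, on mixing in cancer cells and between pure cultures under each alternative run, and in the difference between the changes on mixing under each but 1. Between mixed cultures, and over both cultures, it was 1 from barcode counts and 1 from transcript counts, and it ran from 0 to 1 when each library was left out in turn. The gene was Insig1 each time. From barcode counts with each library left out, chosen after seeing the data, the count ran from 0 to 3 between mixed cultures, from 0 to 2 over both cultures and from 0 to 1 in the difference on mixing. The highest counts came without A08. There Fdps and Fdft1 were called beside Insig1 between mixed cultures, and Fdft1 beside Insig1 over both cultures. Fdps was called in the difference (2.13 on the log2 scale, beside −0.13 from reads). Without A08 the mixed cancer group is A04 alone, where Fdps has 247 barcodes on 2501 reads and Fdft1 200 on 1166 reads. Barcode counts saturate once most tags are used, and the part of this in the Fdps and Fdft1 calls was not tested. In that setting 13.4%, 14.9% and 7.97% of all genes tested were called in the 3 comparisons, beside 8.29%, 16% and 0.539% from barcodes of all libraries. Over both cultures the barcode call on Insig1 was also lost without A01 or A07 (edgeR adjusted p = 0.148 and 0.0515). From transcript counts its log2 change was −2.23 between mixed cultures (edgeR adjusted p = 0.00419) and −1.25 over both cultures (edgeR adjusted p = 0.0143). From reads without A02, the log2 change of Insig1 was −2.47 between mixed cultures and −1.50 over both cultures. From reads without A07 it was −2.04 between mixed cultures, and from reads without A06 these changes were −0.85 and −0.68. The cause was not tested. DESeq2 gave adjusted p = 0.0781 and 0.0975 for Insig1. Acss2 was not called between pure cultures without A01 (edgeR adjusted p = 0.152) or without A03 (edgeR adjusted p = 0.118). From barcodes it was not called between mixed cultures without A04 (edgeR adjusted p = 0.0539). Of the genes called from reads with all libraries, none turned its direction under any alternative that tested it. Abcg5 was tested in only 8 alternatives over both cultures, beside 23 for Acss2. Fdps in the difference on mixing was above 0 in 11 and below 0 in 12 of 23 alternatives. A minimum count of 50 left 4 of the 8 genes, so it gave no value for the others, and a fit of only the cancer libraries tested 7. No paired analysis was possible because the groups share no replicate numbers in the labels and no source used here says which wells were cultured together, and the order of the wells was not taken as a pairing. Depth limits A02 most, where 26.1% of the tested genes had 0 reads and the 8 genes had 4 to 49 reads each.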
